A study of Homo sapiens with 8 samples.

Results

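The transcriptional cyclin-dependent kinases (CDKs) other than CDK9, with the cyclins and the assembly factor that bind them, were examined in RNA polymerase II (RNAPII) chromatin immunoprecipitation sequencing (ChIP-seq) data. The set holds 10 genes of 19794 protein-coding genes and was chosen by name: CDK7, CCNH, MNAT1, CDK8, CDK19, CCNC, CDK12, CDK13, CCNK and CDK11B. No measured value entered the rule, although earlier results of these data were known when the genes were chosen. The cells were MDA-MB-453, an established human breast cancer line of luminal type, grown for 3 days before a 4 h treatment with vehicle or with 600 nM of the CDK9 inhibitor CDDD11-8, which the labels call D11-8. Each treatment had 2 libraries from separate passages of the same line (n = 2), precipitated with the RNAPII antibody CTD4H8, and 4 chromatin input libraries served the authors as controls for peak calling and were not analysed as samples here. All libraries come from this 1 line, so p-values measure the spread between its passages.

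RNAPII is taken through the transcription cycle by kinases that phosphorylate the tail of its large subunit. CDK7, with cyclin H and MAT1, forms the CDK-activating kinase of the general factor TFIIH and acts at the promoter. CDK8 or CDK19 with cyclin C forms the kinase module of Mediator, the complex that links activators to RNAPII. CDK12 and CDK13 pair with cyclin K and phosphorylate RNAPII during elongation, and CDK11 pairs with the L-type cyclins and is tied to splicing and to formation of transcript ends. CDK9, the target of CDDD11-8, releases RNAPII that has paused shortly after the transcription start site (TSS). The paper reports selectivity for CDK9 over CDK7, but states that CDK8, CDK12, CDK13 and CDK19 were not assessed. It also raises possible inhibition of CDK12 by the drug. The paper regards the effects it saw on MYC and E2F target genes as pointing more to CDK9.

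The deposited peak lists hold 57493 and 78306 peaks with vehicle and 21842 and 25897 with CDDD11-8, all at a −log10 q-value of at least 2. Read totals are not part of the lists, so depth per library is unknown here beyond the minimum that the methods state, and a longer list can hold more weak peaks. The counts of members and of partner genes on the gene body, and coverage by distance, are therefore also given with equal numbers of peaks, that is, with the 21842 peaks of the highest −log10 q-value in every library. Of the 8 luminal markers reported here, among them ERBB2, FOXA1 and GATA3, 8 had a promoter peak in all 4 libraries. The luminal markers KRT8 and KRT18 had identical fold enrichment in every library, so they may rest on the same peak. Of 7 markers of other cell types, 6 had none in any library, and COL1A1 had one in CDDD11-8 replicate 1. A comparison of 2 against 2 libraries has 6 splits, so the smallest p an exact two-sided permutation test can give is 0.33, and none of the differences below could reach 0.05. A member is called higher or lower here when both CDDD11-8 libraries lie above or below both vehicle libraries, which is the arrangement that gives exact p = 0.33.

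All 10 members had an RNAPII peak within 300 bp of the TSS in all 4 libraries, against a background of 49.0% of protein-coding genes. When a summit, the highest point of a peak, had to lie within 300 bp, 8 of 10 members qualified (background 38.2%). The genes are spread over 7 chromosomes of GRCh37 and run from 18.7 kb for CCNH to 235.2 kb for MNAT1. Of the CDK-activating kinase, CDK7 at chr5:68530622-68573256 (plus strand), CCNH at chr5:86690091-86708747 (minus strand) and MNAT1 at chr14:61201479-61436683 (plus strand) were annotated. Those of the Mediator kinase were CDK8 at chr13:26828266-26979375 (plus strand), CDK19 at chr6:110931181-111136840 (minus strand) and CCNC at chr6:99990263-100016536 (minus strand). The elongation pair and their cyclin were CDK12 at chr17:37617739-37690797 (plus strand), CDK13 at chr7:39989855-40139179 (plus strand) and CCNK at chr14:99947761-100001381 (plus strand), and the last member was CDK11B at chr1:1570601-1590465 (minus strand). Their promoter sequences differ widely, and 5 are shown because their peaks mark the range of the response described next: CDK12, CDK13 and CCNK had the widest peaks with CDDD11-8, CDK8 had the narrowest peak with vehicle, and CDK11B changed least in width. Each line gives the 250 bases of the GRCh37 reference before the TSS, 5′ to 3′ on the strand of the gene. Capitals mark a match on either strand to GGGCGG, known as a GC box, to the CCAAT box, spelled as its name reads, or to the E2F consensus. The usual form of that consensus was sought as TTCGCGC. A further spelling of it, with another base at one of the positions, is TTGGCGC and was counted as the same motif.
CDK12, chr17:37617489-37617738, plus strand: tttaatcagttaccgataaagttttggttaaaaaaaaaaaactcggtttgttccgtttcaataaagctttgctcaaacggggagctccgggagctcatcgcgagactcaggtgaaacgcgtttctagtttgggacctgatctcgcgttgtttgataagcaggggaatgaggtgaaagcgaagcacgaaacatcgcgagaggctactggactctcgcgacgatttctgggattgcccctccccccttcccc
CDK13, chr7:39989605-39989854, plus strand: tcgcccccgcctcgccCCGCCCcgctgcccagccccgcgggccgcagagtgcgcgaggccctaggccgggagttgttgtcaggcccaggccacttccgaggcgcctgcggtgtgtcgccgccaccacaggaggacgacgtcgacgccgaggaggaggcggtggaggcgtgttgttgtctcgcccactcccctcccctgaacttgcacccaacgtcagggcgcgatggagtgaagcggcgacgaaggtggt
CCNK, chr14:99947511-99947760, plus strand: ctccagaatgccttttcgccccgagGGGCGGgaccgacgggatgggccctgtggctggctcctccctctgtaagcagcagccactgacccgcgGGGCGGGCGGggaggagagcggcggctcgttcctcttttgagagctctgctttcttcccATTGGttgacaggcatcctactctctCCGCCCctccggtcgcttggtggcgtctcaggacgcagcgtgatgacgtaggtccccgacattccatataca
CDK8, chr13:26828016-26828265, plus strand: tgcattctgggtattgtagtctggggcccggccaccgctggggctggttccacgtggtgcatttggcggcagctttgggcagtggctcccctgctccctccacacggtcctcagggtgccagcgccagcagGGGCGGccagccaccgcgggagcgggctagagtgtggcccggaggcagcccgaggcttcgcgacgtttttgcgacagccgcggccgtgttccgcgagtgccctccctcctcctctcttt
CDK11B, chr1:1590466-1590715, minus strand: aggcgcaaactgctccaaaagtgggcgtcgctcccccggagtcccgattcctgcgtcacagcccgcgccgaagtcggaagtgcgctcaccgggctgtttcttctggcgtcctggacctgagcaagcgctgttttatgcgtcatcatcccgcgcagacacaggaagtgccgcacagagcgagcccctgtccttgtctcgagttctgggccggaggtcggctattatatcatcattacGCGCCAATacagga
Motifs were sought on both strands of a window from 250 bases before to 50 bases after each start. A GC box was found in 6 of 10 members (CDK7, CCNH, CDK8, CDK19, CDK13 and CCNK) and in 57.1% of all promoters. CCNK held 4 GC boxes, of which the pair in the middle of the run overlap, and a CCAAT box. A CCAAT box was found in CCNK and CDK11B and in 35.3% of all promoters, and in CDK11B it overlaps an E2F match. CDK11B alone of the members held an E2F match, which 6.45% of all promoters hold. No member held TATAAA (10.0% of all promoters), CCGGAAGT (an ETS site, 5.70%), the NRF1 consensus (1.64%) or the YY1 consensus (1.64%). GC content of the window had a median of 60.2% over the members and 62.0% over all promoters, and it ran from 49.0% in CDK12 to 72.7% in CDK13. These letters describe the sequence and are not evidence of binding.

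The RNAPII promoter peak was wider with CDDD11-8 in each of the 10 members. The background was 64.5% of 9602 genes, those of at least 1 kb whose promoter held a peak in each of the 4 libraries, and 9.41% of those genes had a narrower peak. The members had a median width of 2663 bp in vehicle (± 32.9, SD, n = 2) against 4921 bp in treated cells (± 641), and the 9602 genes had 3071 bp (± 67.5) and 4635 bp (± 382). The count was again 10 with equal numbers of peaks, where the background was 63.8%. When peaks within 1 kb of each other were merged, it was 7 of 10, with a background of 47.0%, and the libraries of CDK7, CCNH and CDK11B then overlapped.

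**Figure D1:**
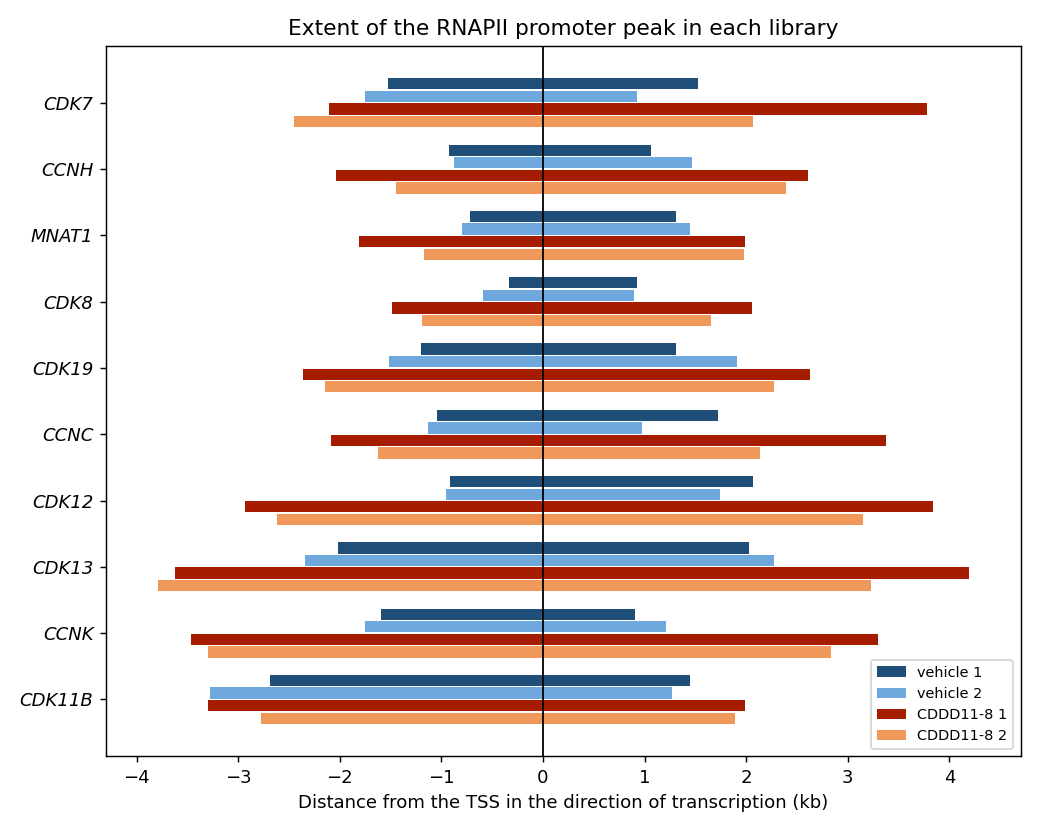
Extent of the RNAPII promoter peak of each member gene in kb from the TSS (vertical line, transcription to the right), with 1 bar per library. The CDDD11-8 bars extend farther to the right than both vehicle bars in all 10 genes, and farther to the left in all but CDK11B.

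Among the genes of the CDK-activating kinase, the peak of CDK7, the catalytic subunit, spanned 3052 and 2675 bp with vehicle and 5882 and 4521 bp with CDDD11-8. The peak of CCNH, which encodes cyclin H, spanned 1990 and 2341 bp with vehicle and 4642 and 3841 bp with CDDD11-8. The assembly factor gene MNAT1 had 2034 and 2248 bp with vehicle and 3799 and 3149 bp with CDDD11-8. The treated libraries did not overlap the vehicle libraries in any of the 3 genes, and the ratio of means ran from 1.62 for MNAT1 to 1.96 for CCNH.

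In the Mediator kinase module, CDK8 started from the narrowest vehicle peaks of the set, 1258 and 1480 bp, and had 3544 and 2846 bp with CDDD11-8. Its ratio of means was 2.33. The paralogue CDK19 had 2512 and 3422 bp with vehicle and 4987 and 4414 bp with CDDD11-8, and CCNC, the gene of their cyclin, had 2768 and 2106 bp and then 5461 and 3758 bp. In both genes the narrower CDDD11-8 library still exceeded the wider vehicle library, by a smaller margin than in CDK8 when taken as a multiple of the vehicle width.

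The widest peaks after treatment belonged to the CDK12, CDK13 and cyclin K genes. CDK12 had 2986 and 2698 bp with vehicle and 6763 and 5769 bp with CDDD11-8. CDK13 had 4046 and 4624 bp with vehicle and 7809 and 7018 bp with CDDD11-8. CCNK had 2500 and 2956 bp with vehicle and 6769 and 6134 bp with CDDD11-8. The 6 treated values of these genes all lay at or above 5769 bp, and of the other 7 members only CDK7 in CDDD11-8 replicate 1 exceeded that. CCNK had the largest ratio of means in the set, 2.36. Its peak also covers the starts of SETD3, a gene read in the opposite direction whose annotated starts lie between −636 and −535 bp, and the CDK13 peak covers the start of the divergent RNA CDK13-DT at −501 bp. A long noncoding RNA on the opposite strand also starts inside the promoter peak of CCNH, at 588 bp, and of CDK11B, at −321 bp. RNAPII on either gene of these 4 pairs cannot be told apart.

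CDK11B was the member with the smallest difference. Its peak measured 4134 and 4554 bp with vehicle and 5288 and 4672 bp with CDDD11-8, a ratio of means of 1.15. The highest vehicle value and the lowest treated value were close to each other. Its promoter peak reaches past the end of SLC35E2B, which lies 524 bp upstream on the same strand. CDK11B also has a near-identical neighbour copy, CDK11A, so reads may not be assigned to the right copy, and the CDK11A widths of 3919, 3982, 5433 and 3625 bp overlapped between treatments.

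The added width lay on both sides of the TSS. Downstream, the edge of the promoter peak was farther into the gene with CDDD11-8 in 10 of 10 members (background 59.4%, and 9.75% of genes had a nearer edge). The members reached a median of 1371 bp in vehicle (± 14.8, SD, n = 2) against 2584 bp in treated cells (± 537), and the 9602 genes 1583 bp (± 48.1) and 2384 bp (± 181). Upstream, the edge was farther in 9 of 10 members, all but CDK11B (background 66.7%). Both counts were the same with equal numbers of peaks, where the backgrounds were 58.7% downstream and 66.6% upstream. With peaks within 1 kb merged, the downstream count was 7 (43.6%), without CCNH, CCNC and CDK11B.

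CCNK had the largest relative change downstream, from 908 and 1206 bp to 3299 and 2839 bp, a ratio of means of 2.90. CDK13 reached farthest on average with CDDD11-8, 4189 and 3229 bp, from 2032 and 2278 bp. CDK12 went from 2069 and 1744 bp to 3834 and 3146 bp. CDK7 differed most between its treated replicates, with 3779 and 2071 bp after 1530 and 925 bp. CDK8 had the shortest mean reach with CDDD11-8, 2059 and 1652 bp from 921 and 893 bp, close to MNAT1 with 1991 and 1979 bp from 1310 and 1448 bp and CDK11B with 1991 and 1894 bp from 1450 and 1273 bp. The last 3 genes overlapped each other within the treated libraries and could not be ordered.

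The strongest summit kept its place in CDK12, at 116 to 157 bp after the TSS in the 4 libraries, and in CCNC, at 0 to 44 bp. In CDK19 it lay at 270 and 311 bp with vehicle, after the TSS, and at −146 and −129 bp with CDDD11-8, before it. In CDK13 the vehicle replicates placed it at −779 and 649 bp, so no direction could be read there. The CDK11B summit lay before the TSS in every library, between −1303 and −31 bp.

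The height of a promoter peak was compared as a rank, because fold enrichment over the local background is set by each library's own scaling and cannot be compared between lists. The percentile used is the rank of a peak's fold in its own list, as a percent of the list's length, so that the strongest peak is at 100. CDK8, CDK13 and CCNK stood higher with CDDD11-8 than with vehicle, 3 of 10 members against a background of 9.08%. A further 3 stood lower, namely MNAT1, CDK19 and CCNC, against a background of 42.0%. Since the vehicle lists contain more peaks away from promoters, the rank was also taken among promoter peaks only, an alternative chosen after seeing the data. CDK8, CDK13 and CCNK were again higher (3 of 10, background 25.0%), and MNAT1 and CDK19 lower (2 of 10, background 21.9%).

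**Figure D2:**
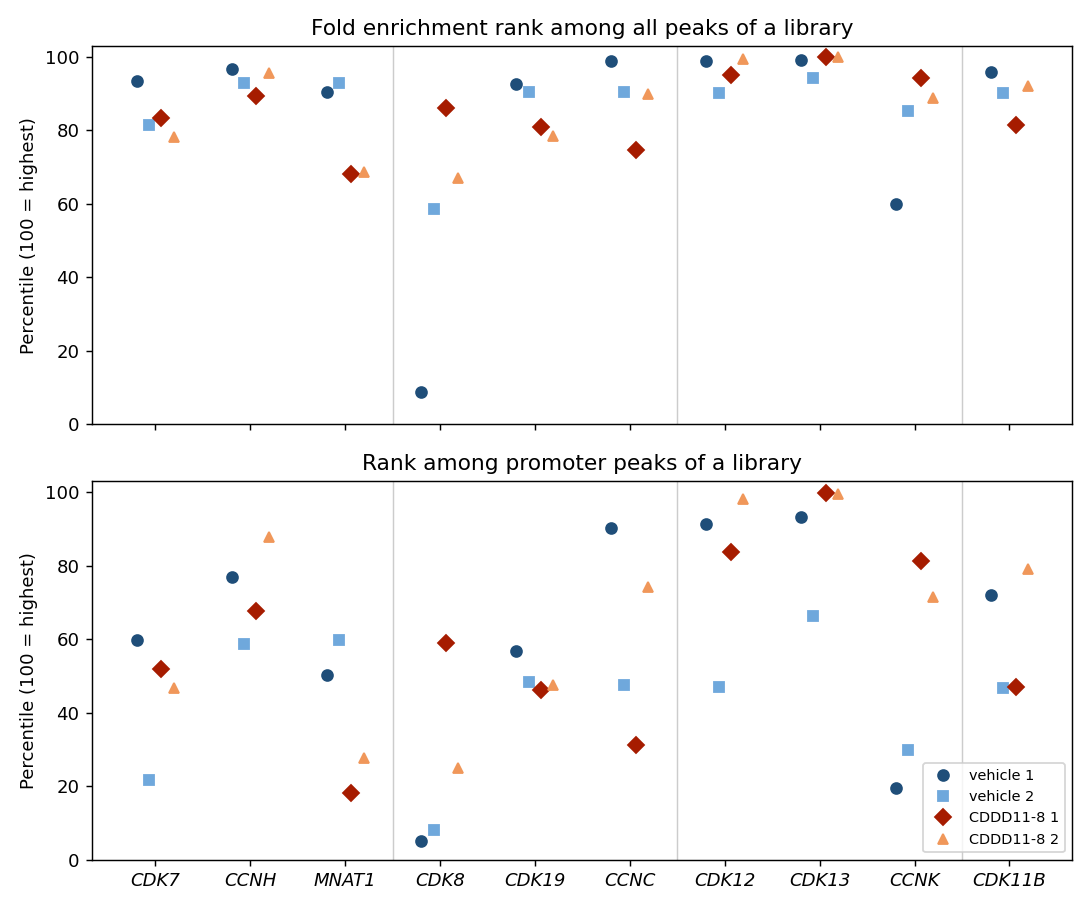
Percentile of the promoter peak of each member gene by fold enrichment, among all peaks of a library (top) and among its promoter peaks (bottom), with 1 point per library and grey lines between complexes. CDK13 lies above the 99th percentile in both CDDD11-8 libraries in both panels, and in the lower panel the vehicle points of CDK8 lie below 10, the lowest of the set.

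CDK13 had the highest percentile of the set among all peaks in each of the 4 libraries. It stood at 99.2 and 94.2 with vehicle and 99.97 and 99.9 with CDDD11-8, and among promoter peaks at 93.3 and 66.2, then 99.8 and 99.6. In the authors' own scaling its fold enrichment was 14.5 and 10.0 in vehicle, then 70.7 and 47.6 in treated cells. CCNK stood at 19.5 and 29.7 among promoter peaks with vehicle and at 81.2 and 71.5 with CDDD11-8. CDK8 stood at 5.08 and 8.13 with vehicle, near the bottom of all promoter peaks, and at 59.1 and 25.1 with CDDD11-8. The CDK8 and CCNK groups did not overlap, although the treated CDK8 replicates were far apart.

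MNAT1 moved the other way. It stood at 50.3 and 59.8 among promoter peaks with vehicle and at 18.3 and 27.7 with CDDD11-8, with fold enrichment of 6.03 and 9.20, then 12.2 and 11.4. Its treated ranks were the lowest of the members in CDDD11-8 replicate 1 and next to lowest in replicate 2. CDK19 stood at 56.8 and 48.4 with vehicle and 46.1 and 47.6 with CDDD11-8, where the nearest libraries of the groups were less than 1 percentile point apart. CDK7, CCNH, CCNC, CDK12 and CDK11B overlapped between treatments among promoter peaks, and CDK12, with 91.4 and 47.0 and then 83.8 and 98.1, illustrates the spread between replicates. With equal numbers of peaks, 5 members ranked higher (38.6% of genes) and 0 lower (11.6%). By −log10 q-value 1 ranked higher (CCNK, 4.34%) and 7 lower (74.1%), and by pileup 2 ranked higher (CDK12 and CCNK, 2.56%) and 8 lower (83.8%). CDK8 was among the lower members by both of these scores. CDK13 was among them by pileup and overlapped by −log10 q-value. CCNK was thus the member that ranked higher under each of these rules.

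Gene body coverage is the percent of bases inside a peak, counted from 300 bp past the start up to the transcription end site (TES) and a further 3 kb. It was lower with CDDD11-8 in 6 of 10 members. These were CDK7, CCNH, MNAT1, CCNC, CDK12 and CDK13, and the background was 45.3%. It was higher in 2, CDK8 and CDK19 (background 21.5%), and overlapped in CCNK and CDK11B. The members had a median of 15.9% in vehicle (± 5.25, SD, n = 2) against 5.52% in treated cells (± 0.925), and the 9602 genes had 16.0% (± 3.62) and 8.29% (± 1.07). The lower coverage was not kept in most members with equal numbers of peaks. CCNC alone was then lower (1 of 10, background 29.3%) and 4 were higher (MNAT1, CDK8, CDK19 and CDK13, background 36.7%). The difference in medians changed from −10.4 to 1.13 percentage points. In this setting MNAT1, CDK8 and CDK19 had 0 body peaks separate from the promoter peak in every library. Their coverage there is the promoter peak itself. Why the vehicle lists are longer, by depth or by treatment, was not tested. At a −log10 q-value of at least 5, the lower members were CCNH, CCNC and CDK12 (3 of 10, background 37.5%). Of the 5 members at least 3 kb from other coding genes, CCNC, CDK12 and CDK13 were lower (3 of 5, background 44.9%) and CDK8 and CDK19 higher (2 of 5, background 24.5%).

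**Figure D3:**
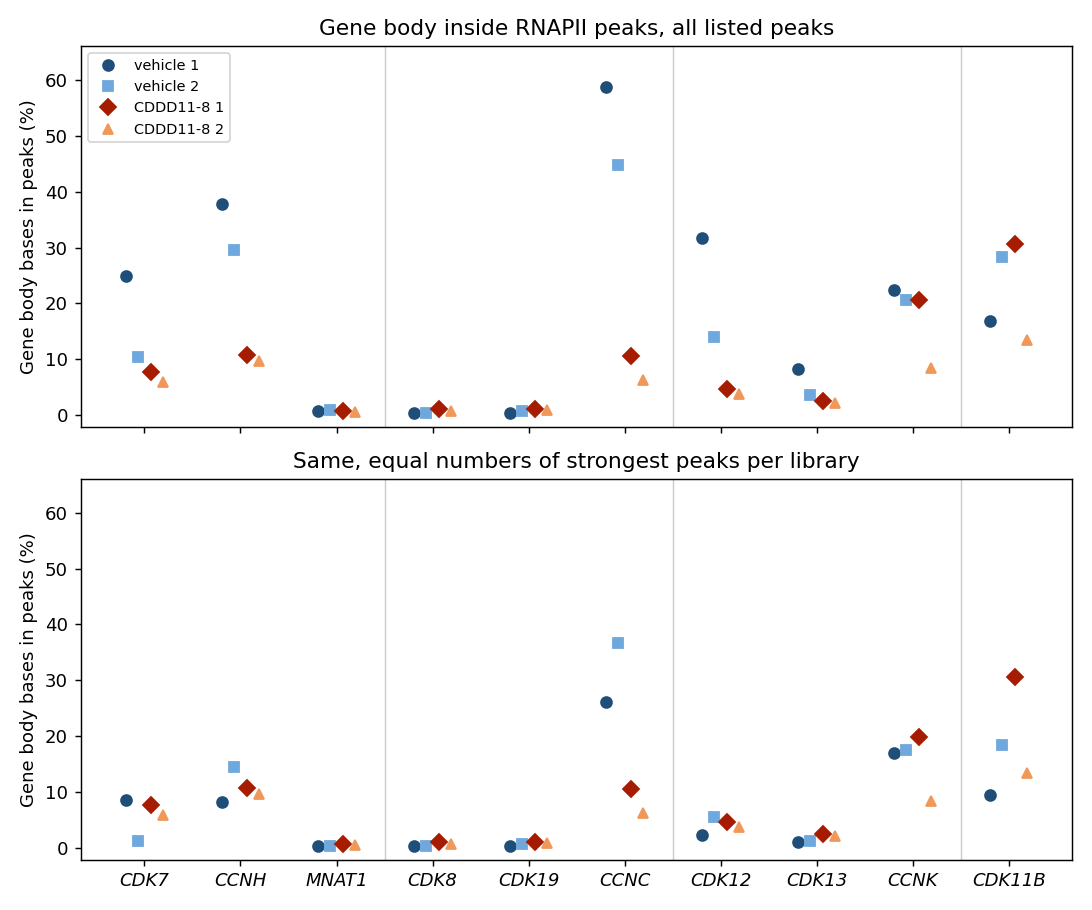
Percent of gene body bases inside RNAPII peaks for each member gene, with 1 point per library, using all listed peaks (top) and equal numbers of peaks per library (bottom), with grey lines between complexes. The vehicle points of CCNC lie above its CDDD11-8 points in both panels, whereas those of CCNH and CDK12 do so only in the upper panel.

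CCNC, the cyclin C gene, had the highest coverage of the members in both vehicle libraries. The values were 58.6% and 44.8% with vehicle and 10.6% and 6.34% with CDDD11-8, and with equal numbers of peaks 26.2% and 36.8%, then 10.6% and 6.34%. The groups did not overlap in either setting, and their means were 51.7% ± 9.79 (SD, n = 2) and 8.48% ± 3.02 over all peaks. CCNC lies 9201 bp from its nearest protein-coding neighbour, so that no annotated coding gene shares its window.

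CCNH came next in both vehicle libraries, with 37.7% and 29.6%, and had 10.8% and 9.79% with CDDD11-8. Its vehicle values of 8.23% and 14.6% with equal numbers of peaks enclosed the treated ones. CDK7 had 24.9% and 10.4% with vehicle and 7.68% and 5.97% with CDDD11-8, and with equal numbers 8.74% and 1.38%, again around the treated values. MNAT1, the longest member, was barely covered: 0.810% and 0.988% with vehicle and 0.711% and 0.706% with CDDD11-8. Apart from the promoter peak, it held 2 and 1 peaks with vehicle and 0 and 0 with CDDD11-8. The windows of these 3 genes run to within reach of CCDC125, RASA1 and TRMT5, which end 2745, 2357 and 1475 bp beyond them on the opposite strand, so a peak past these gene ends may belong to either gene.

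CDK12 had 31.6% and 14.0% of its body in peaks with vehicle and 4.67% and 3.76% with CDDD11-8. The vehicle values became 2.34% and 5.60% with equal numbers of peaks and enclosed the treated values. CDK13 had 8.37% and 3.61% with vehicle and 2.56% and 2.16% with CDDD11-8, and with equal numbers the order turned, 1.14% and 1.30% against 2.56% and 2.16%. In that setting CDK13 had 0 and 0 peaks separate from the promoter peak with vehicle and 0 and 1 with CDDD11-8. The turned order is thus mostly the promoter peak reaching farther into the gene. The vehicle body peaks of both genes were therefore mostly below the score of the top 21842 peaks. CCNK had 22.4% and 20.6% with vehicle and 20.7% and 8.44% with CDDD11-8, and its 2 treated replicates were farther apart than the group means. Counted over its canonical transcript, the groups did not overlap, at 34.9% and 31.9%, then 29.3% and 13.4%, and when the first 2 kb and everything past the TES were left out, values were 23.2% and 20.7%, then 19.3% and 5.92%.

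CDK8 and CDK19, like MNAT1, had near-empty bodies. CDK8 had 0.404% and 0.386% with vehicle and 1.14% and 0.880% with CDDD11-8. CDK19 had 0.487% and 0.773% with vehicle and 1.12% and 0.946% with CDDD11-8. Neither gene had a body peak separate from the promoter peak in any of the 4 libraries, which 20.7% of genes share, so their higher coverage is the promoter peak itself reaching farther into the gene. CDK11B had 16.9% and 28.3% with vehicle and 30.6% and 13.4% with CDDD11-8 and its groups overlapped. CDK11A, its copy, had 8.59%, 14.9%, 26.2% and 7.40% in the same order, also overlapping.

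**Figure D4:**
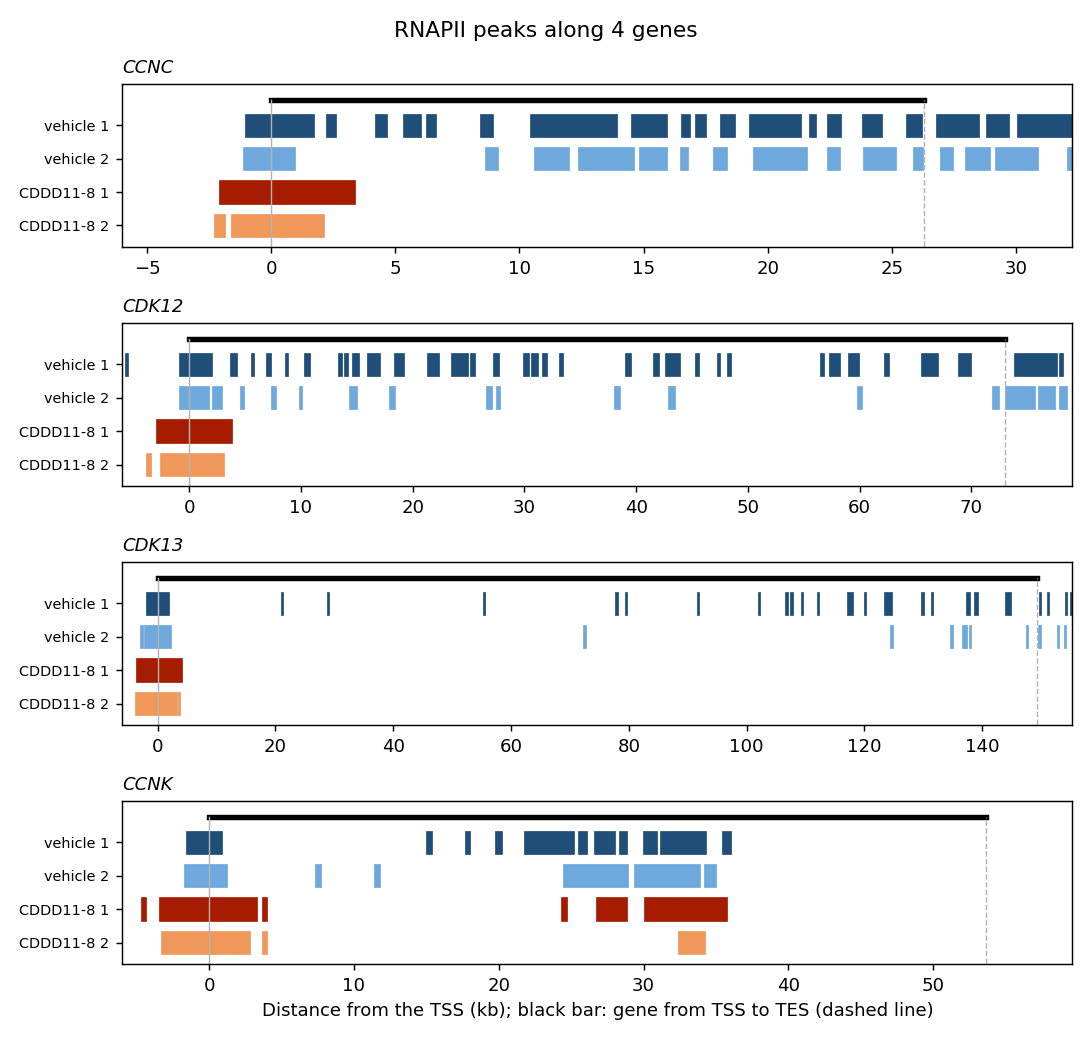
RNAPII peaks along CCNC, CDK12, CDK13 and CCNK, in kb from the TSS, with 1 row of boxes per library and the gene as a black bar that ends at the dashed TES line. In CCNC and CDK12 the vehicle rows hold peaks scattered, with gaps, along the gene and past its end, and the CDDD11-8 rows hold none beyond 5 kb after the TSS.

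The peaks along the gene show where coverage differed over all listed peaks. Separate body peaks were fewer with CDDD11-8 in 7 of 10 members (all but CDK8, CDK19 and CDK11B, background 40.7%), a measure added after seeing the data. CDK12 had 30 and 13 with vehicle and 0 and 0 with CDDD11-8. CCNC had 15 and 10, then 0 and 0, and CCNH had 11 and 6, then 0 and 0. With MNAT1, 4 members had body peaks in both vehicle libraries and in neither treated library (background 20.4%). CDK13 had 19 and 6, then 0 and 1, and CDK7 had 14 and 4, then 0 and 2. The count of members with fewer body peaks was 2 with equal numbers of peaks (background 14.2%): CCNC with 3 and 6, then 0 and 0, and CCNH with 2 and 2, then 0 and 0.

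CCNK and CDK11B kept body peaks in all 4 libraries. CCNK had 10 and 5 with vehicle and 4 and 2 with CDDD11-8. Most of them lie beyond 18.8 kb from the TSS, where CCNK overlaps the end of CCDC85C, a gene on the opposite strand, so they cannot be assigned to CCNK. CDK11B had 5 and 6 body peaks with vehicle and 5 and 1 with CDDD11-8, and its groups overlapped. The 1 peak in CDDD11-8 replicate 2 lay at 19015 to 20454 bp and crossed the TES. It reached the end of MMP23B, a gene on the opposite strand, at 20.435 kb, so it may belong to either gene.

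The last covered base before the TES was nearer to the TSS with CDDD11-8 in the same 6 members that had lower coverage (background 39.4%), and farther in CDK8 and CDK19 (background 17.1%). In CDK12, a gene of 73.1 kb, it lay at 69981 and 73058 bp with vehicle and 3834 and 3146 bp with CDDD11-8, the edge of the promoter peak. In CDK13, of 149.3 kb, it lay at 144817 and 147785 bp with vehicle and 4189 and 3767 bp with CDDD11-8. MNAT1 had its last covered base at 204729 and 233416 bp with vehicle and 1991 and 1979 bp with CDDD11-8, which rests on the 3 body peaks given above. With equal numbers of peaks, 2 members kept a nearer last base, CCNH and CCNC (background 21.2%).

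**Figure D5:**
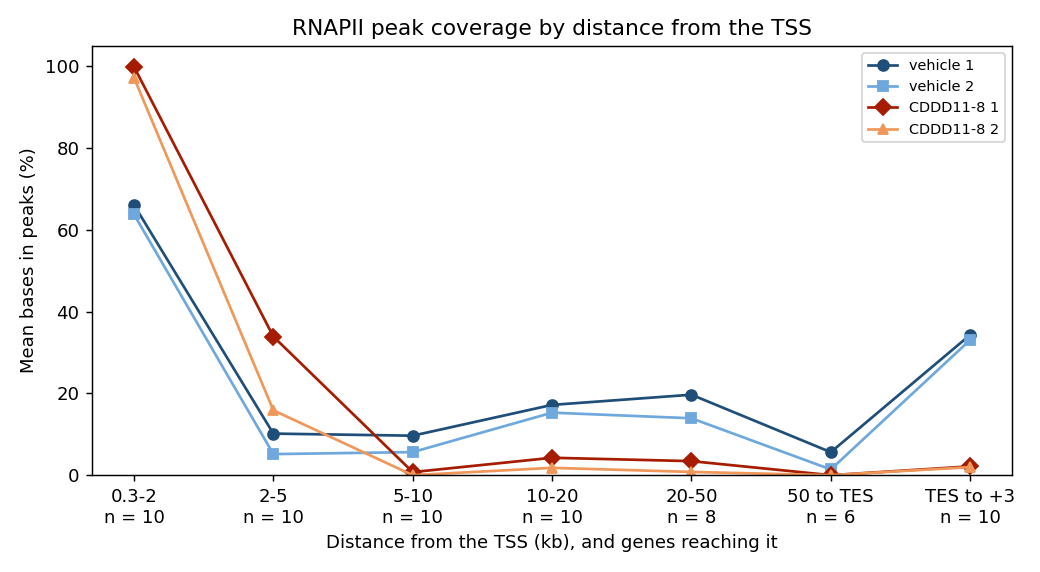
Mean percent of bases inside RNAPII peaks over the member genes, by distance from the TSS in kb, with 1 line per library and the number of genes reaching each bin under the axis. The CDDD11-8 lines lie above the vehicle lines up to 5 kb and below them in every later bin.

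Averaged over the members, coverage changed sides at about 5 kb from the TSS. In the bin of 0.3 to 2 kb the means were 65.0% in vehicle (± 1.63, SD, n = 2) against 98.6% in treated cells (± 1.90), and in that of 2 to 5 kb 7.66% (± 3.54) against 24.9% (± 12.8). The order then turned, with 7.65% in vehicle (± 2.84) against 0.375% in treated cells (± 0.530) in the bin of 5 to 10 kb and 16.2% (± 1.34) against 3.03% (± 1.74) in that of 10 to 20 kb. In the 6 members longer than 50 kb, the part beyond that distance was 3.51% ± 2.99 covered with vehicle and 0% in both CDDD11-8 libraries. The libraries of the groups did not overlap in any of these bins. Over all 9602 genes, or those that reach a bin, the same means were 71.7% (± 1.47) and 87.9% (± 2.79) in the first bin, 28.8% (± 1.66) and 30.4% (± 5.50) in the second, and 21.7% (± 4.14) and 8.77% (± 2.42) in the third. From 10 to 20 kb they were 18.5% (± 3.70) and 5.85% (± 1.69), and beyond 50 kb 11.0% (± 2.29) and 2.46% (± 0.938). Relative to these, the members had low vehicle coverage from 2 to 10 kb and beyond 50 kb, a description of 10 genes that was not tested. When equal numbers of peaks were used, an alternative chosen after seeing the data, the members had 64.9% (± 1.58) in vehicle against 98.6% (± 1.90) in treated cells in the first bin, and 0.637% (± 0.415) against 24.2% (± 11.8) in the second. From 5 to 10 kb the libraries then overlapped, at 1.37% (± 1.93) and 0.375% (± 0.530), and beyond 50 kb both groups were near 0, at 0.0177% (± 0.0250) and 0%. From 10 to 20 kb the groups still did not overlap, with 7.53% (± 3.61) and 3.03% (± 1.74). From 20 to 50 kb they did not overlap either, with 9.11% (± 2.14) and 2.11% (± 1.87). Over all listed peaks the members had 16.8% (± 4.07) and 2.11% (± 1.87) in that bin. With equal numbers, the means over all genes were 16.1% (± 1.95) and 8.93% (± 2.14) from 5 to 10 kb. They were 13.3% (± 1.71) and 5.84% (± 1.48) from 10 to 20 kb, and 10.8% (± 1.64) and 4.21% (± 1.19) from 20 to 50 kb.

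Past the TES, where RNAPII continues until transcription ends, the mean covered share of a 3 kb window over the members was 33.7% in vehicle (± 0.877, SD, n = 2) against 2.06% in treated cells (± 0.132), and over the 9602 genes 44.1% (± 3.31) against 20.9% (± 3.43). This window was also added after seeing the data. It was lower in 5 members, CDK7, CCNH, CCNC, CDK12 and CDK13 (background 39.7%), and in each of the 5 both treated libraries were at 0% (background 26.1%). CDK12 had 74.5% and 91.5% with vehicle, CDK7 89.0% and 56.0%, and CCNC 73.9% and 55.7%. CCNH had 57.6% and 49.8%, and CDK13 30.1% and 14.8%. CDK8, CDK19 and CCNK had no coverage there in any library, and CDK11B, whose window holds MMP23B, had 18.2% and 33.5% with vehicle and 21.5% and 19.7% with CDDD11-8. For CCNK the window follows the isoform of 53.6 kb, whereas its canonical transcript ends near 31 kb. Peaks reaching past that point lay at 31160 to 34288 and 29341 to 33870 bp with vehicle. With CDDD11-8 they lay at 30053 to 35797 and 32367 to 34260 bp. CCDC85C overlaps this stretch, so they cannot be assigned to CCNK. At a −log10 q-value of at least 5 the count was 3 (CCNH, CCNC and CDK12, background 31.8%). With equal numbers of peaks, 0 members were lower past the TES (background 25.0%): vehicle replicate 2 kept 91.5% in CDK12 and 37.8% in CCNC, and replicate 1 kept 89.0% in CDK7, but the other vehicle library of each was at 0%.

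The proteins that work with these kinases were taken as a list of 27 partner genes, of which 23 had a promoter peak in all 4 libraries. Body coverage was lower with CDDD11-8 in 10 of them and higher in 3, and the promoter peak was wider in 16 and narrower in 0, beside the backgrounds of 45.3%, 21.5%, 64.5% and 9.41% above. Coverage with equal numbers of peaks, also chosen after seeing the data, was lower in 6 (CCNT1, GTF2H1, MED13, CCNL1, POLR2A and CTDSP2) and higher in 7 of 23, beside 29.3% and 36.7%. Among the 6 lower genes, CCNT1 was the only one of P-TEFb (the complex of CDK9 with a T-type cyclin) and GTF2H1 the only one of TFIIH. The counts by role and the values that follow are over all listed peaks, beside the background of 45.3%. Coverage was then lower in 2 of 3 genes of P-TEFb, 3 of 6 of TFIIH, 1 of 3 of the Mediator kinase module, 1 of 4 related to CDK11, and 3 of 7 of the RNAPII large subunit and the phosphatases of its tail. CCNL1, a cyclin partner of CDK11, had 98.6% and 95.6% with vehicle and 42.8% and 36.3% with CDDD11-8. MED13, which joins the kinase module to Mediator, had 56.4% and 41.0%, then 1.96% and 1.99%. POLR2A, the large subunit of RNAPII itself, had 58.2% and 35.8%, then 8.57% and 8.42%. CTDSP2, a phosphatase gene, had 90.9% and 76.5%, then 49.0% and 32.0%.

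Among these 23 genes, those whose coverage was higher with CDDD11-8 in both same-numbered pairs were CCNQ, CTDP1, CTDSP1 and MED13L. CCNQ, the cyclin partner of CDK10, had 6.05% and 6.45% with vehicle and 15.5% and 12.5% with CDDD11-8. CTDP1, a phosphatase of the RNAPII tail, had 0% and 0.740%, then 3.84% and 2.03%. MED13L, the paralogue of MED13, had 0.231% and 0.103%, then 0.444% and 0.396%, a near-empty body like that of CDK8. CTDSP1 had 97.9% and 96.5%, then 100% and 97.7%, and its groups overlapped.

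For each member, the gene most like it was sought among genes of 0.5 to 2 times its length, by the Euclidean distance over 8 values (body coverage and fold percentile in the 4 libraries, over all listed peaks). CDK19 had the closest match, LIMA1 at a distance of 3.37, followed by MNAT1 with AKAP13 at 4.36 and CDK13 with SCFD1 at 4.50. CDK12 was nearest to PPP4R3B at 7.63, CCNH to SKA3 at 7.38, CDK7 to BPNT1 at 9.06 and CDK8 to ITSN2 at 9.51. CCNC was nearest to TYW5 at 12.0, CCNK to ATG4B at 14.0 and CDK11B to DNAJB11 at 15.8. The 3 members without a gene closer than 12 in this measure were thus CCNC, CCNK and CDK11B.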

How the data were processed

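RNAPII ChIP-seq was analysed in 4 libraries of MDA-MB-453 cells. Per the study's methods and processing notes, reads were aligned with Bowtie 2 to GRCh37, and MACS2 called the peaks of each library against a paired input, without pooling replicates, and versions are not given in the sources used here. In the deposited peak tables, pileup is a signal in fragments at the summit that the authors scaled between ChIP and input, and fold enrichment is the authors' ratio to local background. Significance is deposited as −log10 p-value and −log10 q-value, and region positions and lengths are in bp. Peak extent depends on depth and scaling, which the tables do not give.

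A region with several summits counted as 1 peak. Genes were protein-coding genes of GENCODE release 44 mapped to GRCh37, with the longest coding isoform. Sequences were read from the GRCh37 reference. Groups followed the sample titles. The 10 members, the partner genes and the markers were chosen with earlier results of these data known. The genes named were all members, the 4 partner genes with the largest fall and the 4 with the largest rise in body coverage in both same-numbered pairs, and the most alike gene of each member. Of the markers, PECAM1 was not used, and 1 luminal marker is not reported here. Coverage past the TES, separate body peaks, ranks among promoter peaks, the longest transcript of any type and a crossed pairing were added after seeing the data. Results were recomputed with equal numbers of peaks, a stricter −log10 q-value (5 or more), merging within 1 kb, other windows, transcripts and ranks, isolated genes, leaving out each replicate, and a replicate block. The 8 measures were tested on simulated data and recovered all 2000 planted genes. The software was Python 3.11.15 with pandas 2.3.3, numpy 2.4.6 and matplotlib 3.10.9.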

Additional observations from a re-analysis of the deposited data

How the results depend on the processing

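The wider and farther reaching promoter peaks were counted in 7 to 10 members under the alternatives tried over all 10. Counts of members on the gene body changed with the number of peaks kept. Why the vehicle lists are longer was not tested, and read depth, not given in the lists, limits all of these results. With equal numbers of peaks, the count of members fell to 1 for lower body coverage, 2 for a nearer last covered base, 2 for fewer body peaks and 0 for lower coverage past the TES, rose to 5 for a higher fold rank, the partner genes went to 6 lower and 7 higher, and the difference in median body coverage became 1.13 percentage points. A −log10 q-value of at least 5 gave 3 members for lower body coverage and 3 past the TES, isolated genes gave 3 of 5 and a median of −3.63, the longest transcript of any type gave 3 past the TES, and ranking by q-value gave 1 higher member. Leaving out 1 library gave 10 members for a wider and a farther reaching peak, 3 to 4 for fold rank, 6 to 8 for body coverage, 6 to 7 for the last covered base, 7 to 8 for body peaks, 5 to 7 past the TES and −14.1 to −6.68 for the median. Shares over all genes are not given for leaving out a library or for the longest transcript of any type. The backgrounds above do not apply to those counts. As far as the construction shows, equal numbers and the higher q-value leave fewer vehicle peaks; the cause of the other changes was not tested.

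The sign of single genes turned as follows, as CDDD11-8 minus vehicle. With equal numbers of peaks, body coverage became 1.76 in CDK7, 0.255 in MNAT1, 0.246 in CDK12, 1.14 in CDK13 and 8.07 in CDK11B, the percentile 15.4 in CDK7, 6.65 in CCNH, 3.77 in CDK19 and 5.19 in CDK11B, and the last covered base 606 bp in MNAT1, 1823 bp in CDK13 and 949.5 bp in CCNK. At a −log10 q-value of at least 5, coverage became 0.189 in MNAT1 and 0.971 in CDK11B, and the last base 949.5 bp in CCNK. Among promoter peaks the percentile became 8.59 in CDK7, 9.93 in CCNH and 3.81 in CDK11B, by q-value −4.02 in CDK8, and by pileup −10.005 in CDK8 and −1.16 in CDK13. With peaks within 1 kb merged, width became −234.5 bp in CDK11B and reach −153.5 bp in CCNH, and with the body ending at the TES, CDK11B coverage became 0.202. Leaving out 1 library moved the CCNH percentile from −5.51 to 0.757 (positive without CDDD11-8 replicate 1) and that of CDK12 from −1.83 (without vehicle replicate 2) to 6.92. It moved CDK11B coverage from −9.12 to 8.07, positive without vehicle replicate 2 (5.17) or CDDD11-8 replicate 2, and the CCNK last base from −1255 to 282 bp, positive without vehicle replicate 1 (6.5 bp) or CDDD11-8 replicate 2.

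The 2 replicate experiments were consecutive passages, and whether a replicate number marks a passage is not stated in the labels. Deviations of same-numbered libraries from the group means correlated at −0.0729 for coverage, −0.0426 for width and −0.112 for percentile. With the replicate block, the counts of members were 10 for width, 3 for rank, 7 for coverage, 10 for reach, 7 for the last base, 5 past the TES and 7 for body peaks (exact sign-flip test, smallest p 0.5). The crossed pairing gave 10, 4, 6, 10, 6, 5 and 8. Shares over all genes are not given for either pairing, and the backgrounds above do not apply to these counts. The counts show only how far the calls depend on the pairing.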
